A study of Mus musculus with 4 samples.

Results

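The Ly49 receptor family was followed in leukocytes of the mouse salivary gland through 9 genes of the natural killer (NK) gene complex, Klra1, Klra3, Klra4, Klra5, Klra7, Klra8, Klra9, Klre1 and Klri2. These were chosen by symbol and not by a rule on their values, though with earlier results of these data known. They are 9 of the 26033 features counted. The samples were CD45+ cells (leukocytes) of salivary glands from mice aged 20 days, in 4 single-cell libraries. Csf2-/- mice, which lack the gene of the myeloid growth factor GM-CSF, gave 1 female and 1 male library, and Csf2+/- mice, with 1 intact allele, gave 1 female and 1 male library. Each library was pooled from 2 mice, and both genotypes are labelled C56BL/6. Wherever 2 values of a genotype are given, the female library comes before the male. The spread within a genotype therefore includes any difference between the sexes, and p-values measure only the spread among these 4 libraries.

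Ly49 receptors are lectin-like proteins on mouse NK cells that read MHC class I molecules on neighbouring cells. Most carry an inhibitory motif and restrain killing when class I is present, while a few lack it and signal through the adaptor DAP12, encoded by Tyrobp. Each NK cell switches on its own mixture of these genes, so that the population holds many combinations, and in mice this mixture is built up after birth. Klra1, Klra3, Klra7 and Klra9 encode the inhibitory receptors Ly49A, Ly49C, Ly49G and Ly49I. Klra5 encodes Ly49E, an inhibitory receptor known from fetal NK cells and some tissue-resident lymphocytes. Klra4 and Klra8 encode the activating receptors Ly49D and Ly49H, of which Ly49H recognises a protein of mouse cytomegalovirus. Klre1 and Klri2 lie in the same gene complex and encode lectin-like chains that pair with each other, and they are not Ly49 genes in the strict sense. "Ly49 genes" below means the 7 Klra members.

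Promoter sequence is printed for 6 Klra members because these genes were seen in different sets of cells, as described further on, while the bases before their starts hold a run that is rare elsewhere. The stretches come from RefSeq promoter windows on build GRCm38.p6 (minus strand, 5′ to 3′, 45 bases each, all before the annotated start), which is not the build used for counting. The positions are Klra3 at chr6:130337627-130337671, Klra4 at chr6:130067332-130067376, Klra5 at chr6:129913296-129913340, Klra7 at chr6:130233393-130233437, Klra8 at chr6:130129960-130130004, Klra9 at chr6:130193132-130193176. Capitals mark GCAATTTCCT, a run of bases chosen after the sequences were seen.
Klra3: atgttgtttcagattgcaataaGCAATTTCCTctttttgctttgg
Klra4: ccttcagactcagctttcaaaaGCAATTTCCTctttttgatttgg
Klra5: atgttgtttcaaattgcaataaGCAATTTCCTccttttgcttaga
Klra7: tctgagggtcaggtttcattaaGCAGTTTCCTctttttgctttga
Klra8: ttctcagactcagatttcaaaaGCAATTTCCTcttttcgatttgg
Klra9: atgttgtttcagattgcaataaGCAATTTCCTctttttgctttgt
In Klra7 the run carries A4G, counted from its 5′ end. Klra3 and Klra9 were the closest pair, with 44 of 45 bases identical (97.8%), and Klra3 and Klra5 shared 91.1%. Klra4 and Klra5, and likewise Klra5 and Klra8, were the least alike at 55.6%. The run was found, on either strand, in 39 of 32851 promoter windows of 300 bases (250 before and 50 after the start), a share of 0.119%. Only exact matches were counted here, so Klra7 is not among them, and other runs of this length were not counted for comparison. Of the 36 genes holding it 8 were Klra genes, 5 of them members. It was not found in the windows of Klra1 and Klre1, and Klri2 was not among the genes in the promoter table.

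The libraries held 111981802 to 122366588 unique molecular identifiers (UMIs, each counting a captured RNA molecule), and 34805 cells were kept. The cells fell into 43 clusters that were named X-like from marker genes. NK and ILC1-like cells (group 1 innate lymphocytes) numbered 2695 and 1904 in Csf2-/-, against 3075 and 2587 in Csf2+/-. They comprised NK-like clusters, dividing NK-like clusters and 1 ILC1-like cluster with high Cxcr6 (284 CPM) and little Eomes (9.64 CPM). Itga1, an ILC1 marker, had 237 CPM in that cluster and 254 CPM in the largest NK-like cluster, so it did not set them apart. A T-like cluster rich in Gzmb (928 CPM), called Gzmb T-like here, was singled out after its Ly49 levels had been seen. Median UMIs per NK and ILC1-like cell were 9246 and 8969.5 in Csf2-/-, against 11433 and 10847 in Csf2+/-, so shares of cells were taken after thinning to 3000 UMIs. Cells with fewer UMIs were left out of these shares. In NK and ILC1-like cells they numbered 41 and 40 in Csf2-/-, against 21 and 22 in Csf2+/-. Csf2 itself, in ILC2-like cells, had 6.74 and 5.79 CPM in Csf2-/-, against 125 and 139 CPM in Csf2+/-. Which part of Csf2 is deleted is not given in the sources used here, so the UMIs left in Csf2-/- were not placed on the gene.

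NK-like cells carried the highest levels of the activating members. Levels are CPM, the UMIs of a gene scaled to the UMI total of its class and library. Since the libraries are of the 3′ type, levels of different genes were set side by side on this scale without division by length. Where on a transcript each UMI lay cannot be read from the counts. Over all 4 libraries Klra4 was the highest Ly49 gene, at 784 ± 92.1 CPM (SD, n = 4). It was followed by Klra7 at 470.2 ± 25.8, Klra8 at 432 ± 31.1, Klra9 at 322 ± 38.0 and Klra3 at 241 ± 22.8 CPM. Klra1 (85.6 ± 12.6 CPM) and Klra5 (25.3 ± 5.07 CPM) were the lowest. Within this order Klra7 and Klra8 did not separate beyond their spread, nor did Klre1 (718 ± 70.7 CPM) and Klra4. Klri2 averaged 194 ± 7.32 CPM.

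Among the activating genes in NK-like cells, Klra4 had 703 and 763 CPM in Csf2-/-, against 755 and 917 CPM in Csf2+/-. The genotypes overlapped, since the Csf2+/- female library lay below the Csf2-/- male library. Klra8 had 428 and 399 CPM in Csf2-/-, against 474 and 425 CPM in Csf2+/-, again with overlap. The share of thinned NK-like cells with Klra4 was 50.3% and 48.1% in Csf2-/-, against 55.9% and 59.5% in Csf2+/-, without overlap. The share with Klra8 was 38.5% and 35.0% in Csf2-/-, against 42.5% and 39.3% in Csf2+/-. The UMIs of Klra4 per cell with at least 1, before thinning, averaged 12.8 and 13.7 in Csf2-/- and 14.8 and 15.9 in Csf2+/-. B-like cells, which should lack the gene, gave a background for Klra4 of 0.667% and 0% in Csf2-/-, against 3.00% and 0% in Csf2+/-, and macrophage-like cells 0.597% and 0.930% in Csf2-/-, against 1.16% and 1.10% in Csf2+/-.

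Among the inhibitory genes in NK-like cells, Klra7 had 454 and 443 CPM in Csf2-/-, against 488 and 496 CPM in Csf2+/-, with both Csf2+/- libraries above both Csf2-/- libraries. Klra9 had 313 and 375 CPM in Csf2-/-, against 285 and 317 CPM in Csf2+/-, overlapping between genotypes. Klra3 had 266 and 243 CPM in Csf2-/-, against 243 and 210.4 CPM in Csf2+/-. For Klra3 the Csf2-/- male and Csf2+/- female libraries were level. Klra1 had 71.0 and 93.1 CPM in Csf2-/-, against 98.7 and 79.6 CPM in Csf2+/-, and its share of thinned cells was 9.09% and 9.89% in Csf2-/-, against 11.8% and 9.44% in Csf2+/-. Its positive cells were as bright as those of Klra7, with 6.24 and 7.39 in Csf2-/- and 7.88 and 7.13 in Csf2+/- UMIs per positive cell for Klra1, and 7.50 and 6.80 in Csf2-/- and 8.43 and 7.94 in Csf2+/- for Klra7. The lower level of Klra1 in the class went with fewer positive cells. Klra5 was lowest in level and share, at 31.2 and 24.8 CPM in Csf2-/-, against 26.2 and 18.9 CPM in Csf2+/-, with shares of 3.72% and 2.74% in Csf2-/-, against 3.28% and 3.19% in Csf2+/-. Reads of Klra3, Klra7 and Klra9 can be shared with close copies. In the last 500 bases of the transcripts, 8.52% of 90-base windows of Klra3 occur in Klra10 or Klra9, 10.2% of those of Klra7 in the pseudogene Klra13-ps, and 14.1% of those of Klra9 in Klra11-ps, Klra10 or Klra3. Their levels are uncertain to at least that extent, as the rest of each gene was not searched. Klra1, Klra4, Klra5, Klra8, Klre1 and Klri2 shared no such window in these bases.

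Klre1 was seen in more NK-like cells than any Ly49 gene. Its share of thinned cells was 83.7% and 88.1% in Csf2-/-, against 83.5% and 86.4% in Csf2+/-, and its level 677 and 814 CPM in Csf2-/-, against 655 and 728 CPM in Csf2+/-. The share with its partner Klri2 was 37.0% and 41.0% in Csf2-/-, against 36.2% and 36.9% in Csf2+/-, near that of Klra8, at a level of 193 and 204 CPM in Csf2-/-, against 191 and 187 CPM in Csf2+/-. In macrophage-like cells the share with Klre1 was 1.19% and 2.21% in Csf2-/-, against 1.35% and 1.41% in Csf2+/-.

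**Figure D1:**
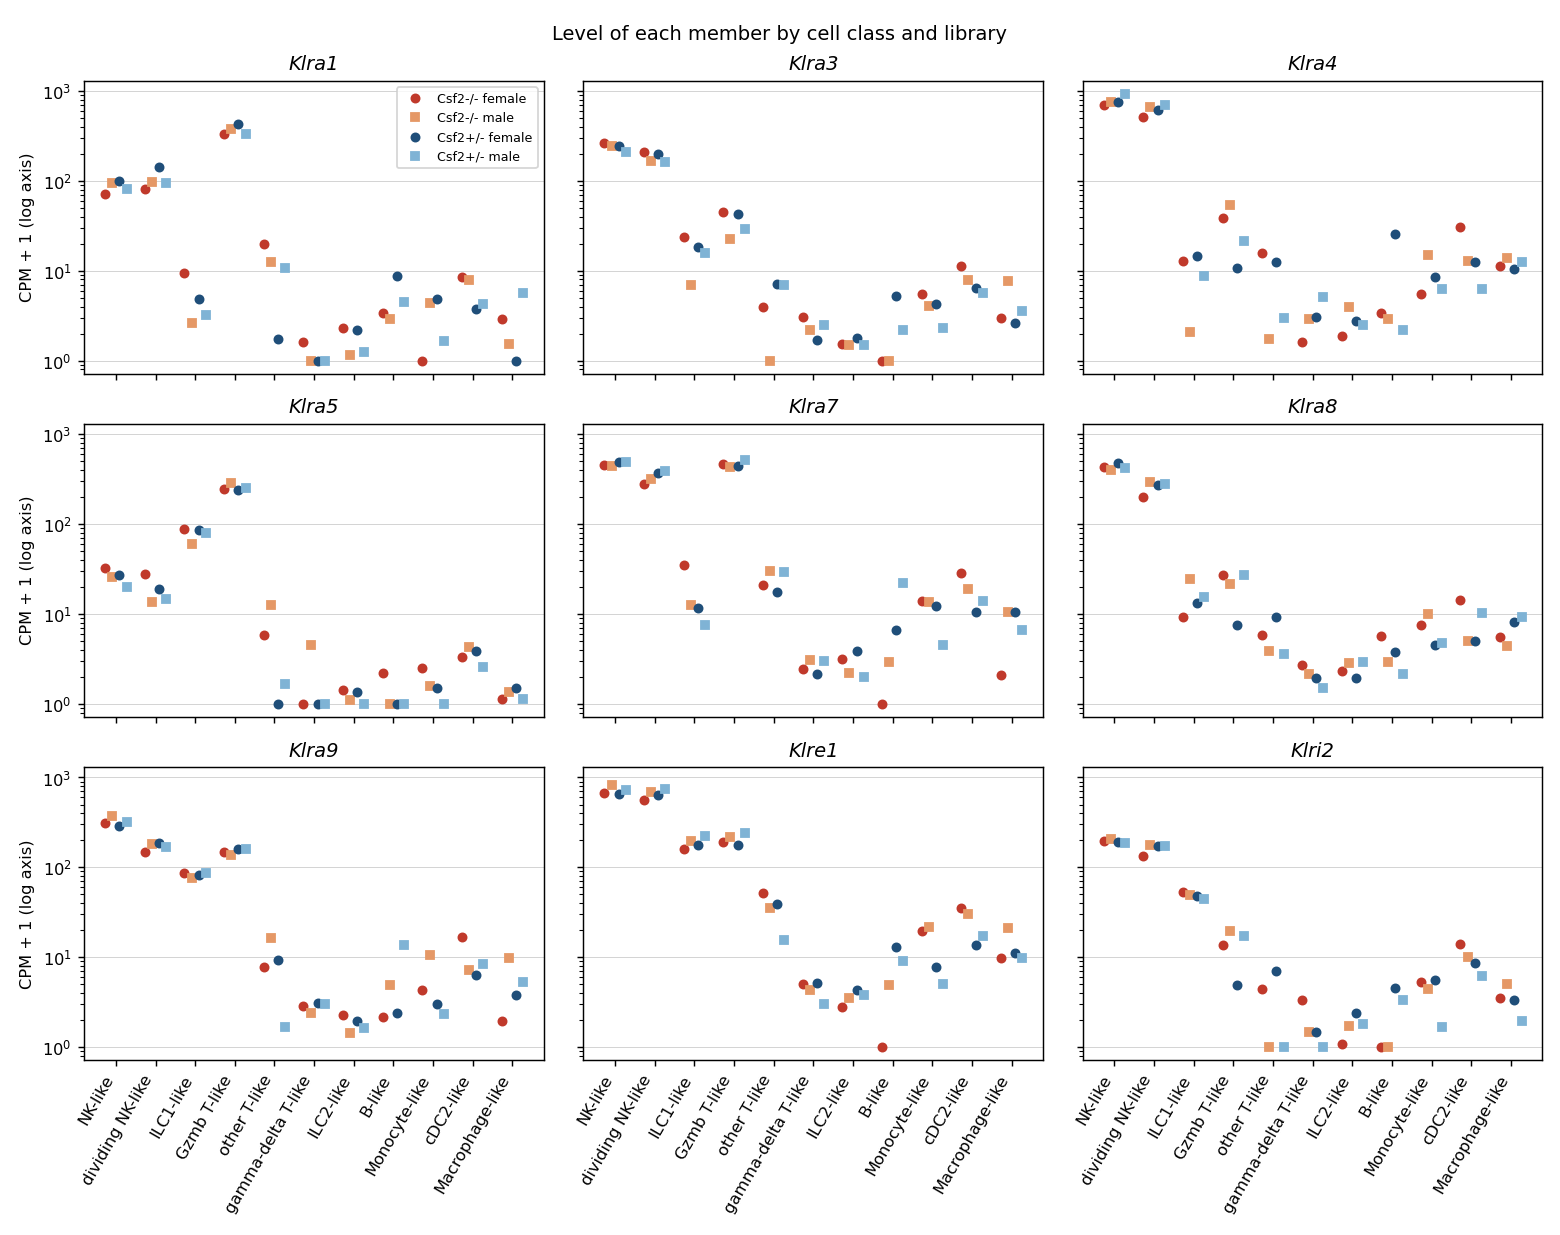
Levels of the 9 members in 11 cell classes, as CPM + 1 on a log axis. Each point is 1 library, Csf2-/- (red and orange) left of Csf2+/- (blue), circles female and squares male. Klra4 and Klra8 stand highest in NK-like and dividing NK-like cells, Klra7 also in Gzmb T-like cells, and Klra5 is higher in Gzmb T-like and ILC1-like cells than in NK-like cells.

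In ILC1-like cells the inhibitory genes Klra5 and Klra9 were the highest of the Ly49 genes, below Klre1. Klra5 had 86.5 and 59.0 CPM in Csf2-/-, against 84.8 and 77.8 CPM in Csf2+/-, a mean of 77.0 ± 12.6 CPM that lay above its NK-like mean of 25.3 ± 5.07 CPM, with no overlap between the classes. Klra9 had 86.0 and 75.9 CPM in Csf2-/-, against 80.8 and 85.6 CPM in Csf2+/-, below its NK-like level in every library. The activating genes were low, Klra4 with 11.8 and 1.09 CPM in Csf2-/-, against 13.5 and 7.78 CPM in Csf2+/-. Klra8 had 8.34 and 23.2 CPM in Csf2-/-, against 12.2 and 14.3 CPM in Csf2+/-. Klra7 had 33.9 and 11.7 CPM in Csf2-/-, against 10.7 and 6.57 CPM in Csf2+/-, and Klra1 had 8.53 and 1.64 CPM in Csf2-/-, against 3.82 and 2.19 CPM in Csf2+/-. None of these 4 reached the NK-like level in any library. The share of thinned ILC1-like cells with Klra5 was 8.37% and 6.85% in Csf2-/-, against 9.33% and 6.48% in Csf2+/-, and the share with Klra9 11.2% and 8.81% in Csf2-/-, against 8.87% and 10.6% in Csf2+/-. Klre1 had 158 and 194 CPM in Csf2-/-, against 177 and 220.1 CPM in Csf2+/-, and Klri2 had 51.7 and 48.3 CPM in Csf2-/-, against 46.9 and 43.5 CPM in Csf2+/-, both below their NK-like levels. Classes were built from the same cells, so these differences between classes carry no test.

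Gzmb T-like cells carried another mixture, led by inhibitory genes. Klra7 had 461 and 434 CPM in Csf2-/-, against 448 and 521 CPM in Csf2+/-, a range that overlapped the NK-like one. Klra1 had 330.3 and 375 CPM in Csf2-/-, against 426 and 332 CPM in Csf2+/-, and Klra5 had 247 and 284 CPM in Csf2-/-, against 239 and 251 CPM in Csf2+/-. Both lay above every NK-like and ILC1-like library. Klra9 had 148 and 137 CPM in Csf2-/-, against 159.8 and 160.5 CPM in Csf2+/-. Klra4 was low but uneven, at 37.5 and 53.0 CPM in Csf2-/-, against 9.63 and 20.4 CPM in Csf2+/-, with both Csf2-/- libraries above both Csf2+/- libraries. Its share of thinned cells was 3.10% and 3.64% in Csf2-/-, against 1.496% and 2.84% in Csf2+/-, so the level rested on few cells, with 10.1 and 10.6 in Csf2-/- and 3.67 and 4.22 in Csf2+/- UMIs per positive cell. Klri2 had 12.7 and 18.8 CPM in Csf2-/-, against 3.94 and 16.4 CPM in Csf2+/-, and Klre1 had 192 and 215 CPM in Csf2-/-, against 178 and 237 CPM in Csf2+/-. In the other T-like cells Klra7 had 20.0 and 29.1 CPM in Csf2-/-, against 16.7 and 28.3 CPM in Csf2+/-, below every Gzmb T-like library.

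The combinations in single cells differed between these 3 classes. NK-like cells showed 107 combinations of Ly49 genes in 6188 thinned cells, ILC1-like cells 33 in 2427, and Gzmb T-like cells 62 in 1358. In NK-like cells 6.24% had none, and Klra4 with Klra7 was the commonest combination at 5.88% of cells, with 4.61% and 5.39% in Csf2-/-, against 6.21% and 7.08% in Csf2+/-. Klra9 alone made up 5.51%, with 6.12% and 7.44% in Csf2-/-, against 4.82% and 4.53% in Csf2+/-. Klra4, Klra7 and Klra8 together made up 5.01%, with 4.16% and 3.62% in Csf2-/-, against 6.16% and 5.29% in Csf2+/-. Both combinations with Klra4 were less frequent in both Csf2-/- libraries than in both Csf2+/- libraries, and Klra9 alone was more frequent. These combinations were picked after their values were seen and carry no test. In ILC1-like cells Klra9 alone (6.76%) and Klra5 alone (5.52%) were commonest after cells with none (80.1%). In Gzmb T-like cells Klra1 with Klra7 (11.9%) and Klra5 alone (11.05%) were the commonest.

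Most NK-like cells held 2 or 3 Ly49 genes. Cells with exactly 2 made up 29.9% and 33.6% in Csf2-/- and 31.7% and 34.4% in Csf2+/-, and cells with 3 made up 27.6% and 23.02% in Csf2-/- and 30.6% and 29.5% in Csf2+/-. Cells with 1 gene made up 22.1% and 21.3% in Csf2-/- and 18.2% and 16.5% in Csf2+/-, and cells with 4 genes 10.9% and 12.5% in Csf2-/- and 12.1% and 11.9% in Csf2+/-. These shares were set beside the product of the single-gene shares. For cells with no Ly49 gene the product was 5.76% and 6.24% in Csf2-/- and 4.51% and 4.57% in Csf2+/-, against an observed 6.94% and 8.03% in Csf2-/- and 4.97% and 5.99% in Csf2+/-. The observed share of cells with none was above the product in all 4 libraries. In Gzmb T-like cells, cells with none made up 29.3% and 30.0% in Csf2-/- and 33.9% and 24.3% in Csf2+/-, with a product of 22.9% and 23.7% in Csf2-/- and 24.0% and 19.8% in Csf2+/-. Cells with exactly 1 gene made up 31.4% and 31.8% in Csf2-/- and 27.2% and 30.9% in Csf2+/-, with a product of 40.3% and 40.4% in Csf2-/- and 41.3% and 38.8% in Csf2+/-. There, too, cells with none exceeded the product in every library, and cells with 1 gene fell short of it.

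**Figure D2:**
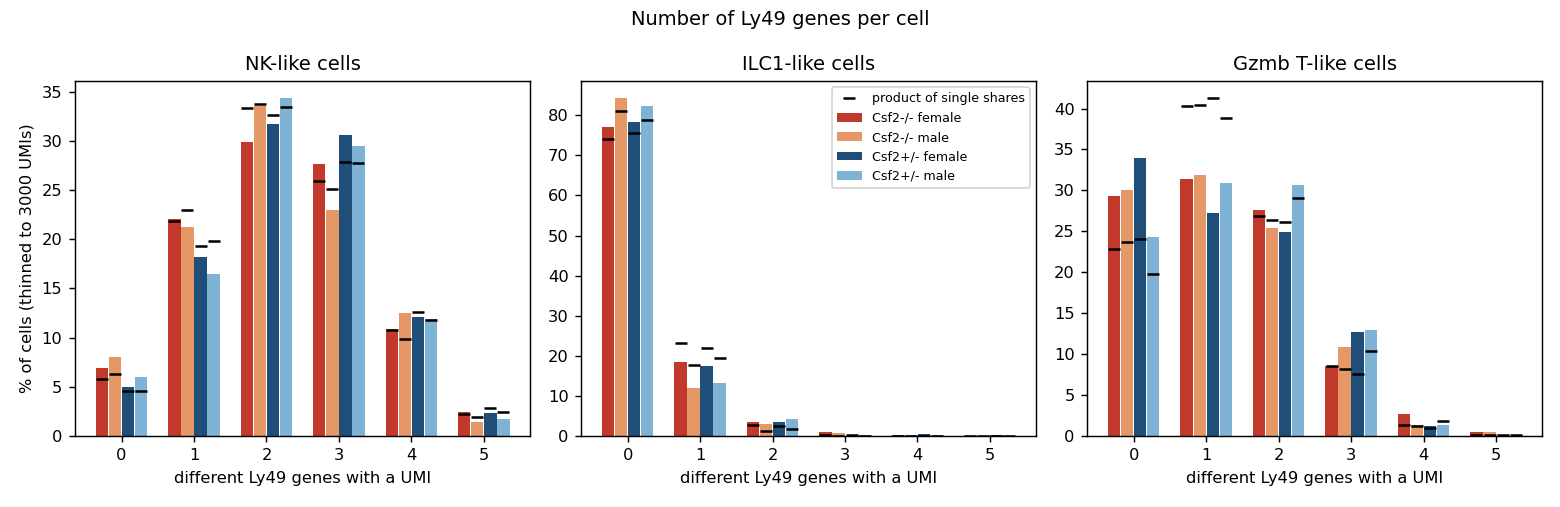
Share of cells (percent) by the number of Ly49 genes seen among 3000 UMIs, in NK-like, ILC1-like and Gzmb T-like cells, 1 bar per library with Csf2-/- left of Csf2+/-. Black dashes mark the product of the single-gene shares; NK-like cells peak at 2 genes in every library, ILC1-like cells at 0.

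Pairs of genes were also read against the product of their shares, as the ratio of observed to product (mean over 4 libraries, with the lowest and the highest library). Of 21 pairs in NK-like cells, 6 lay above 1 and 5 below 1 in every library. The activating pair Klra4 and Klra8 had a ratio of 1.16 (1.10 to 1.20). Klra1 went most often with Klra4, at 1.30 (1.20 to 1.45), and least often with Klra9, at 0.73 (0.64 to 0.83). Klra9 also fell below 1 with Klra4, at 0.88 (0.84 to 0.94), and with Klra7, at 0.90 (0.86 to 0.95). In Gzmb T-like cells Klra1 and Klra7 had 1.72 (1.60 to 1.90) over 285 cells with both. Klra5 lay below 1 there with Klra7, at 0.77 (0.60 to 0.87), and with Klra1, at 0.80 (0.72 to 0.90). In ILC1-like cells the leading pair, Klra5 and Klra9, had 2.59 (1.99 to 3.57), resting on 46 cells. Cells of 1 library share their mice and depth, so these ratios are descriptions.

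Csf2-/- and Csf2+/- mice were then compared for each member in NK and ILC1-like cells. None of the 9 members passed the threshold. The 3 largest shifts were downward, in Klra1, Klra4 and Klra7. Klra7, which encodes inhibitory Ly49G, had 333 and 323 CPM in Csf2-/-, against 394 and 399 CPM in Csf2+/-, and both Csf2-/- libraries lay below both Csf2+/- libraries. Its log2 change was -0.29 (SE 0.07, adjusted p = 0.349) by edgeR's quasi-likelihood test with Benjamini-Hochberg adjustment over 13102 genes. Over all genes only 1 was called in this comparison, a share of 0.00763%, and 1022 had an unadjusted p under 0.05. The called gene was Retnla, with a log2 change of -2.84 (SE 0.17, adjusted p = 0.0102) by edgeR. Retnla also led cluster 15 of the cDC2-like cells described below, and the source of its RNA here was not tested. Of the members, 3 had an unadjusted p under 0.05 (Klra4, Klra7 and Klra8). DESeq2 called 70 genes (0.534%) and none of the members.

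The activating genes lay lower in Csf2-/- as well. Klra4 had 524 and 592 CPM in Csf2-/-, against 619 and 730.1 CPM in Csf2+/-, without overlap, and its log2 change was -0.29 (SE 0.09, adjusted p = 0.525) by edgeR. With sex as a replicate block the same changes in Klra4 and Klra7 passed the threshold, with edgeR adjusted p-values of 0.0103 and 0.0170, in a fit that called 2.19% of all genes. Klra8 had 296 and 296 CPM in Csf2-/-, against 363 and 326 CPM in Csf2+/-, with a log2 change of -0.24 (SE 0.08, adjusted p = 0.552) by edgeR. Both Csf2-/- libraries were again the lower ones.

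Klra1 had 60.6 and 77.7 CPM in Csf2-/-, against 94.6 and 74.0 CPM in Csf2+/-, with a log2 change of -0.31 (SE 0.16, adjusted p = 0.716) by edgeR. The female libraries differed and the male libraries were level. Klra3 had 205 and 175 CPM in Csf2-/-, against 201 and 170.1 CPM in Csf2+/-, and Klra9 had 232 and 259.5 CPM in Csf2-/-, against 233 and 239.9 CPM in Csf2+/-. Their edgeR log2 changes were 0.02 (SE 0.12, adjusted p = 0.988) and 0.03 (SE 0.07, adjusted p = 0.934), and the genotypes overlapped. Klra5 had 41.1 and 27.1 CPM in Csf2-/-, against 32.7 and 24.8 CPM in Csf2+/-, with a change of 0.23 (SE 0.25, adjusted p = 0.872) by edgeR. Klre1 had 549 and 664 CPM in Csf2-/-, against 584 and 665 CPM in Csf2+/- and Klri2 had 152 and 167 CPM in Csf2-/-, against 167 and 164 CPM in Csf2+/-. Their edgeR changes were -0.06 (SE 0.10, adjusted p = 0.917) and -0.07 (SE 0.06, adjusted p = 0.840).

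**Figure D3:**
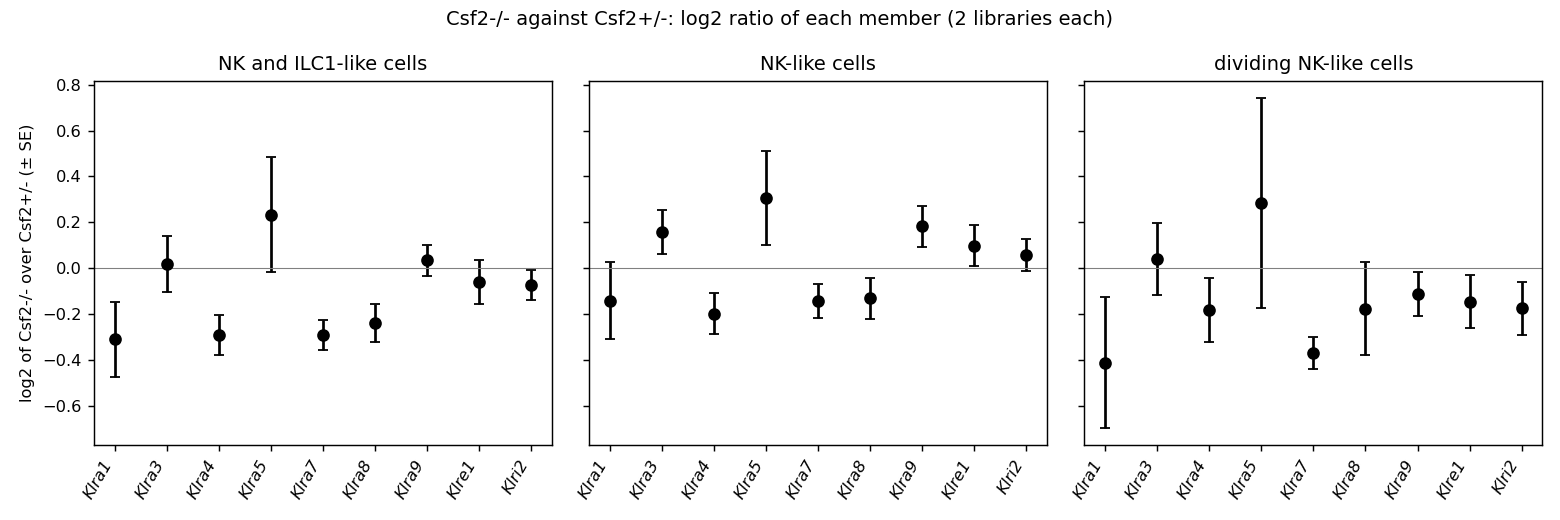
Log2 change of each member in Csf2-/- against Csf2+/- (point) with its SE (bar) in NK and ILC1-like, NK-like and dividing NK-like cells, from edgeR with 2 libraries per genotype. Klra4, Klra7 and Klra8 lie below 0 in all 3, and no member passed an adjusted p of 0.05.

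Within the NK-like cells alone the differences were smaller. Klra7 changed by -0.14 (SE 0.07, adjusted p = 0.673) and Klra4 by -0.20 (SE 0.09, adjusted p = 0.615) on the log2 scale by edgeR. By edgeR and by DESeq2 none of the members was called there, 1 had an unadjusted p under 0.05 (Klra4), and 8 of 12029 genes (0.0665%) were called by edgeR in all. In dividing NK-like cells Klra7 had 275 and 314 CPM in Csf2-/-, against 366 and 388 CPM in Csf2+/-, a log2 change of -0.37 (SE 0.07, adjusted p = 0.0650) by edgeR, and no member was called, with 12 of 11054 genes (0.109%) called in all. DESeq2 called Klra7 in these cells (adjusted p = 0.0493). In ILC1-like cells none of the 9 members was called by edgeR or DESeq2 or had an unadjusted p under 0.05, with 18 of 10446 genes (0.172%) called by edgeR in all. With sex as a replicate block Klra7 was called in both of these classes, at log2 -0.37 in dividing NK-like cells (edgeR adjusted p = 0.00551) and 1.4005 in ILC1-like cells (edgeR adjusted p = 1.21e-06), in opposite directions. Without the Csf2-/- male library edgeR called Klra7, Klra4 and Klra8 in dividing NK-like cells and Klra7 in ILC1-like cells, without the Csf2-/- female library it called Klra4 in ILC1-like cells (log2 -3.31), and without a low-count filter it called Klra7 in dividing NK-like cells. Klra4 in Gzmb T-like cells had the largest change of any member in these 4 classes, 1.59 (SE 0.33, adjusted p = 0.281) by edgeR. It was not called among 17 of 10213 genes (0.166%), although it passed with sex as a replicate block, without a low-count filter and with each library left out in turn (log2 1.13 to 2.18), and not with DESeq2 (adjusted p = 0.799).

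In other classes 5 member results passed the threshold, all higher in Csf2-/-. In cDC2-like cells, clusters named from dendritic cell markers, 1812 of 11718 genes (15.5%) were called, 6.56% as higher in Csf2-/-. There Klre1 had 34.0 and 29.3 CPM in Csf2-/-, against 12.7 and 16.4 CPM in Csf2+/-, a log2 change of 1.12 (SE 0.15, adjusted p = 2.71e-04) by edgeR. Klra1, Klra3 and Klra7 rose as well, by log2 1.25 (SE 0.24, adjusted p = 0.00328), 0.75 (SE 0.24, adjusted p = 0.0484) and 1.00 (SE 0.24, adjusted p = 0.0317) with edgeR. In monocyte-like cells, where 1.67% of genes were called and 0.784% as higher, Klre1 had 18.7 and 21.0 CPM in Csf2-/-, against 6.82 and 3.99 CPM in Csf2+/-, a log2 change of 1.91 (SE 0.25, adjusted p = 3.04e-04) by edgeR. All these levels lay far below the NK-like ones, and the thinned share of monocyte-like cells with Klre1 was 2.64% and 2.50% in Csf2-/-, against 1.54% and 1.68% in Csf2+/-. Klra3 lost its call without the Csf2+/- female (adjusted p = 0.112), Csf2+/- male (0.275) or Csf2-/- female library (0.442), and Klra7 lost it without the Csf2+/- female (0.139) or Csf2+/- male library (0.0678) and with sex as a replicate block (0.0785). DESeq2 called Klre1, Klra1 and Klra7 in cDC2-like cells but not Klra3 (adjusted p = 0.216), and it gave members no adjusted p in monocyte-like cells. Over all these classes leaving out 1 library gave 11 member results (Csf2-/- female left out), 14 (Csf2-/- male), 10 (Csf2+/- female) or 8 (Csf2+/- male). In the remaining classes no member was called by edgeR, or by DESeq2 where it gave an adjusted p, and 1 member had an unadjusted p under 0.05 by edgeR in each of cDC1-like, migratory DC-like, macrophage-like and other T-like cells. Of all genes, edgeR called 0.952% in cDC1-like (7 members tested), 0.34% in migratory DC-like (5), 0.256% in gamma-delta T-like (1), 0.167% in other T-like (5), 0.0518% in ILC2-like (7) and 0.00852% in macrophage-like cells (8). In B-like cells, with 0.0823% called, no member passed the filter on low counts.

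Marker lists of other cell types were read in the same classes, and they did not all lie the same way. The share of all genes lying higher in both Csf2-/- libraries is not given for these classes. The marker counts below therefore have no background beside them. The first list holds markers shared by NK and ILC1 cells. In cDC2-like cells 12 of 15 were higher in both Csf2-/- libraries, their summed level was 2634 and 2592 CPM in Csf2-/-, against 1967 and 2023 CPM in Csf2+/-, and none was at 0. In monocyte-like cells 13 of 15 were higher in both and none was at 0, with sums of 4387 and 4046 CPM in Csf2-/-, against 3908 and 3794 CPM in Csf2+/-, and Ncr1 among them at 7.09 and 5.33 CPM in Csf2-/-, against 3.79 and 2.22 CPM in Csf2+/-. Of 12 alpha-beta T cell markers 11 were higher in both Csf2-/- libraries in cDC2-like cells, with sums of 235 and 290.2 CPM in Csf2-/-, against 84.6 and 127 CPM in Csf2+/-. In monocyte-like cells 7 of the 12 were higher in both and 1 lower in both, with overlapping sums of 118 and 155 CPM in Csf2-/-, against 120.05 and 93.0 CPM in Csf2+/-. The 9 markers of the NK side alone summed to 3101 and 2946 CPM in Csf2-/-, against 3194 and 3203 CPM in Csf2+/- in monocyte-like cells, lower in both Csf2-/- libraries. In cDC2-like cells their sums overlapped, with 1894 and 1624 CPM in Csf2-/-, against 1728 and 1922 CPM in Csf2+/-. The 10 markers of the ILC1 side summed to 391.9 and 415 CPM in Csf2-/-, against 284 and 349.9 CPM in Csf2+/- in cDC2-like cells, and overlapped in monocyte-like cells. Cluster 15 made up 12.6% and 6.35% of cDC2-like cells in Csf2-/-, against 34.4% and 42.0% in Csf2+/-. Its leading genes were Retnla, Fn1, Lyz1 and Ear2. Of 8 cDC2 markers 7 were detected in it, but 0 were among its 10 leading genes. The class thus differed between the genotypes in its mix of clusters. The part of these values in the results for Klre1, Klra1, Klra3 and Klra7 was not tested.

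In both Csf2-/- libraries more NK and ILC1-like cells had no Ly49 gene than in either Csf2+/- library. The share was 29.1% (27.3 to 30.8%) and 30.7% (28.7 to 32.9%) in Csf2-/-, against 22.004% (20.5 to 23.5%) and 22.9% (21.3 to 24.6%) in Csf2+/- (thinned to 3000 UMIs, exact binomial 95% intervals, which cover counting error only). The means were 29.9 ± 1.19% in Csf2-/- and 22.4 ± 0.623% in Csf2+/- (SD, n = 2 each), a difference of 7.45 percentage points with no overlap. An exact two-sided permutation test over the 4 libraries gave p = 0.33, the smallest that 2 against 2 allows, so the comparison could not pass 0.05. Without thinning the shares were 26.1% and 27.4% in Csf2-/-, against 18.4% and 18.5% in Csf2+/-. The mean number of Ly49 genes per cell was 1.60 and 1.56 in Csf2-/-, against 1.85 and 1.82 in Csf2+/-. In B-like cells 93.6% to 97.8% were Ly49-negative, which gives the background of the measure.

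The difference was smaller when the make-up of the class was held constant. ILC1-like cells, few of which hold a Ly49 gene, made up 28.1 ± 0.811% of the class in Csf2-/- and 20.8 ± 1.24% in Csf2+/- (SD, n = 2 each; exact permutation p = 0.33). With the mix of NK-like, dividing and ILC1-like cells held at its mean over the libraries, the Ly49-negative share was 27.6 ± 0.932% in Csf2-/- and 25.3 ± 1.10% in Csf2+/-, a difference of 2.28 points. Among NK-like cells alone it was 6.94% and 8.03% in Csf2-/-, against 4.97% and 5.99% in Csf2+/-, and without thinning 4.67% and 4.87% in Csf2-/-, against 2.57% and 3.16% in Csf2+/-. Dividing NK-like cells gave 25.3% and 18.1% in Csf2-/-, against 15.3% and 15.2% in Csf2+/-. Both classes had their Csf2-/- libraries above their Csf2+/- libraries. The larger dividing NK-like cluster had 52.8 CPM of the T cell gene Cd3e, 37.1 of Cxcr6 and 36.5 of Il7r. The smaller one had 2.47, 13.1 and 6.12 CPM, and the largest NK-like cluster 2.03, 9.62 and 3.54 CPM. The part of dividing cells of other types in that class was not tested. ILC1-like cells, at 77.2% and 84.3% in Csf2-/-, against 78.4% and 82.3% in Csf2+/-, and Gzmb T-like cells, at 29.3% and 30.0% in Csf2-/-, against 33.9% and 24.3% in Csf2+/-, overlapped between the genotypes.

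**Figure D4:**
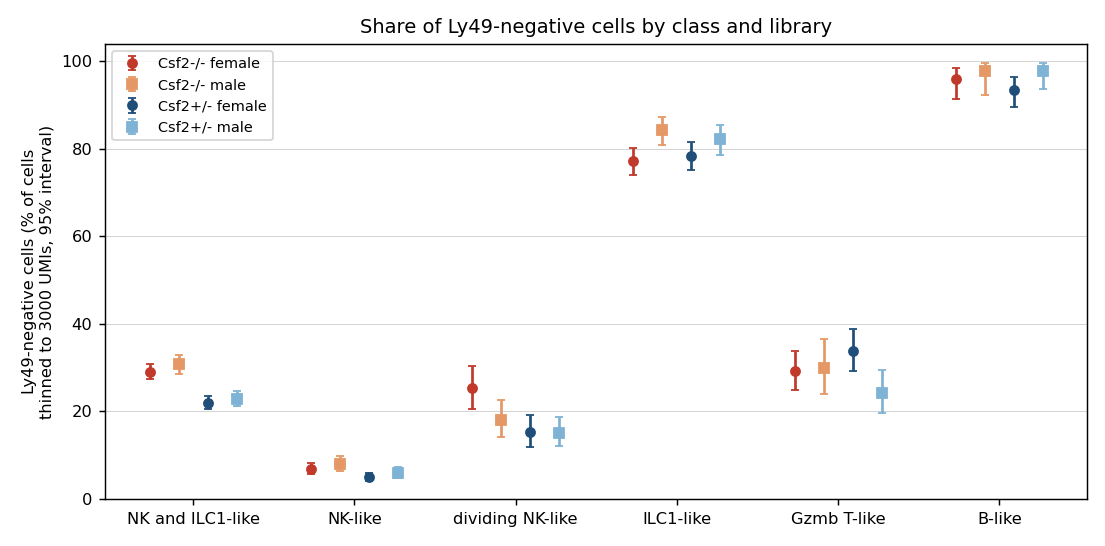
Share of cells with no Ly49 gene among 3000 UMIs (percent, with exact binomial 95% intervals) in 6 classes, 1 point per library, Csf2-/- left of Csf2+/-. In NK and ILC1-like cells the Csf2-/- libraries sit at 29.1% and 30.7%, above both Csf2+/- libraries, while ILC1-like and Gzmb T-like libraries overlap.

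Ly49-negative cells were next compared with Ly49-positive cells of the same class and library, a comparison added after the data were seen. UMIs were summed over the negative and over the positive cells of each library, Klra genes were left out of the test, and the library was a block in edgeR. NK-like cells gave 82 to 110 negative cells per library, and 939 to 1914 positive ones. Cells were called negative after thinning, so some held Ly49 UMIs in their full counts. The negative share of NK-like cells was 6.94% and 8.03% in Csf2-/-, against 4.97% and 5.99% in Csf2+/-, after thinning. Without thinning it was 4.67% and 4.87% in Csf2-/-, against 2.57% and 3.16% in Csf2+/-. It was also lower without thinning in ILC1-like and Gzmb T-like cells. The part of such cells in the gene results was not tested. Higher in negative NK-like cells were 157 of 10200 genes (1.54%), and 75 (0.735%) were lower. These 232 calls (2.27%) fell to 125 without the Csf2+/- male library.

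Ly49-negative NK-like cells had more RNA of several genes that mark tissue-resident and ILC1 cells. Values are ordered Csf2-/- female and male, then Csf2+/- female and male. Il7r, the interleukin 7 receptor chain, had 34.7, 81.3, 13.7 and 14.1 CPM in Ly49-negative cells, against 5.09, 5.74, 2.17 and 1.78 CPM in Ly49-positive cells. Its log2 change was 3.13 (SE 0.25, adjusted p = 1.46e-08) by edgeR, and the negative libraries spread widely. Cxcr6, a chemokine receptor of resident lymphocytes, had 39.6 ± 14.4 CPM in Ly49-negative cells and 7.01 ± 2.20 CPM in Ly49-positive cells (SD, n = 4 libraries), a change of 2.47 (SE 0.24, adjusted p = 1.46e-06) by edgeR. Rora, a transcription factor of innate lymphoid cells, had 144 ± 31.8 CPM in Ly49-negative cells and 48.7 ± 6.80 CPM in Ly49-positive cells, a change of 1.56 (SE 0.09, adjusted p = 4.25e-11) by edgeR. Of 12 tested tissue-resident and ILC1 genes 6 rose and none fell, with a median log2 change of 0.32 beside -0.01 over all genes tested. The sums of the 10 markers of the ILC1 side overlapped, at 1220 to 1383 CPM in negative and 998 to 1251 CPM in positive cells. They were higher in negative cells in 3 of 4 libraries. Klrc1, which encodes the inhibitory receptor NKG2A for the class I molecule Qa-1, rose with 295 ± 41.5 CPM in Ly49-negative cells and 116 ± 25.0 CPM in Ly49-positive cells. That change was 1.38 (SE 0.09, adjusted p = 1.09e-09) by edgeR, and Klrb1b rose by 1.28 (edgeR adjusted p = 1.78e-09).

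Several NK genes were lower in the same cells. Eomes, the transcription factor that sets NK cells apart from ILC1, had 204, 146, 212 and 190.4 CPM in Ly49-negative cells, against 239, 272, 241 and 261 CPM in Ly49-positive cells, a log2 change of -0.41 (SE 0.09, adjusted p = 0.0156) by edgeR. Itga2, the integrin CD49b of NK cells, had 98.7 ± 15.4 CPM in Ly49-negative cells and 156 ± 31.0 CPM in Ly49-positive cells, a change of -0.65 (SE 0.08, adjusted p = 2.71e-05) by edgeR. Tox, a factor needed for NK development, changed by -0.60 (SE 0.07, adjusted p = 4.53e-06) in edgeR. Of 10 tested cytotoxic and effector genes 2 fell and 1 rose (median log2 -0.19). The perforin gene Prf1 and the chemokine gene Ccl3 fell by log2 0.45 and 0.51, with edgeR adjusted p-values of 0.00341 and 4.02e-04, and Ifng, encoding interferon gamma, rose by 0.59 (edgeR adjusted p = 8.60e-04). Of 12 other NK receptors 2 rose and 2 fell, and among the rises Cd226, an activating receptor, changed by 0.73 (SE 0.09, adjusted p = 4.19e-05) in edgeR. With DESeq2, and without the Csf2-/- female or the Csf2+/- male library, none of these receptors fell. Eomes lost its call without the Csf2+/- male (adjusted p = 0.182) or Csf2-/- male library (0.138), Prf1 without the Csf2-/- male library (0.0579).

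Of 9 tested NK-side markers 3 fell and none rose (median log2 -0.41), and of 17 adaptor and signalling genes 5 fell and none rose (median -0.15, beside -0.01 over all genes tested). Leaving out the Csf2-/- male library gave 1 and 2 of these falls, and leaving out the Csf2+/- male library gave 2 and 1. Among the adaptors was Tyrobp, encoding the DAP12 through which Ly49D and Ly49H signal, with a log2 change of -0.23 (SE 0.05, adjusted p = 0.00503) by edgeR, which lost its call without the Csf2+/- male library (0.0846). Klri2 fell too, with 129 ± 7.14 CPM in Ly49-negative cells and 199 ± 9.21 CPM in Ly49-positive cells and an edgeR change of -0.61 (SE 0.08, adjusted p = 1.73e-05). Klre1 had 590.4 ± 69.7 CPM in Ly49-negative cells and 727 ± 73.1 CPM in Ly49-positive cells, an edgeR change of -0.29 (SE 0.05, adjusted p = 0.00171). Both calls held with DESeq2 and with each library left out. The summed ILC2 markers, a list that shares Il7r and Rora with the ILC1 genes, were 289 to 398 CPM in negative NK-like cells and 142 to 163 CPM in positive ones, higher in all 4 libraries. Alpha-beta T cell markers summed to 891 to 1165 CPM in negative cells and 891 to 1016 CPM in positive ones. The part of these sums in the gene results was not tested.

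In ILC1-like cells, where the negative cells are the majority, 231 of 9219 genes (2.51%) were higher and 245 (2.66%) lower in negative cells, 476 (5.16%) in all. Rora had 904 ± 62.2 CPM in Ly49-negative cells and 383 ± 20.7 CPM in Ly49-positive cells, a log2 change of 1.22 (SE 0.05, adjusted p = 3.33e-19) by edgeR. Il7r rose by 1.41 and Arg1, an arginase typical of some innate lymphoid cells, by 1.86, with edgeR adjusted p-values of 4.82e-04 and 1.04e-13. The tissue-resident and ILC1 list went both ways here, with 5 of 12 genes higher and 6 lower in negative cells and a median log2 change of -0.13. Itga1 and Xcl1, a chemokine gene, were among the falls, at log2 -0.43 and -0.25 (edgeR adjusted p = 1.32e-05 and 7.29e-08). Effector genes were lower: Gzmb, encoding granzyme B, had 32.2 ± 8.78 CPM in Ly49-negative cells and 131 ± 56.6 CPM in Ly49-positive cells, a change of -1.99 (SE 0.12, adjusted p = 2.12e-13) by edgeR. Of 10 tested cytotoxic and effector genes 7 fell and none rose, with a median log2 change of -0.76 beside 0.00 over all genes tested. Klre1 had 106, 175, 139 and 178 CPM in Ly49-negative cells, against 304, 285, 307 and 393 CPM in Ly49-positive cells, a change of -1.16 (SE 0.09, adjusted p = 2.12e-08) by edgeR. Klri2 had 38.0 ± 2.15 CPM in Ly49-negative cells and 83.3 ± 7.06 CPM in Ly49-positive cells, a change of -1.12 (SE 0.11, adjusted p = 1.20e-09) by edgeR. Tyrobp fell by log2 0.75 and Itgae, an integrin of resident lymphocytes, by 1.67, with edgeR adjusted p-values of 1.74e-18 and 1.97e-14. Cd3g had 165 ± 10.5 CPM in Ly49-negative cells and 403 ± 40.4 CPM in Ly49-positive cells, a change of -1.31 (SE 0.07, adjusted p = 1.39e-17) by edgeR. The alpha-beta T cell markers summed to 1390.3 to 1425 CPM in negative and 1567 to 1803 CPM in positive ILC1-like cells, and the ILC2 markers to 1339.5 to 1536 CPM in negative and 615 to 734 CPM in positive cells. Their part in these results was not tested.

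In Gzmb T-like cells 417 of 8551 genes (4.88%) were higher and 296 (3.46%) lower in Ly49-negative cells, 713 (8.34%) in all and 424 without the Csf2-/- female library. Rora rose again, with 467 ± 81.3 CPM in Ly49-negative cells and 109 ± 10.1 CPM in Ly49-positive cells and an edgeR change of 2.09 (SE 0.10, adjusted p = 1.76e-13). On the tissue-resident and ILC1 list 5 of 12 genes rose and 3 fell (Itga1, Tnfsf10 and Xcl1), with a median log2 change of 0.12. Icos, a costimulatory receptor of T cells and innate lymphoid cells, had 466 ± 9.84 CPM in Ly49-negative cells and 129.5 ± 9.43 CPM in Ly49-positive cells, a change of 1.85 (SE 0.07, adjusted p = 1.73e-17) by edgeR. Of 10 tested other NK receptors 6 fell and 1 rose (median log2 -0.53; 3 fell without the Csf2+/- female library), and of 9 lectin-like receptors 4 fell and 1 rose. Ncr1, encoding the NK receptor NKp46, had 25.1 ± 7.40 CPM in Ly49-negative cells and 65.6 ± 10.3 CPM in Ly49-positive cells, a change of -1.34 (SE 0.16, adjusted p = 4.14e-07) by edgeR. Tyrobp had 401 ± 63.2 CPM in Ly49-negative cells and 941 ± 136 CPM in Ly49-positive cells, a change of -1.23 (SE 0.08, adjusted p = 3.92e-09) by edgeR. Klre1 had 96.9 ± 29.8 CPM in Ly49-negative cells and 246 ± 20.7 CPM in Ly49-positive cells, a change of -1.41 (SE 0.11, adjusted p = 4.68e-10) by edgeR. Of 14 tested genes for class I molecules and their assembly, the ligands of Ly49 receptors and their loading machinery, 7 rose and none fell in negative cells (median log2 0.21), and 2 rose without the Csf2-/- female library. The gamma-delta marker Trdc rose by log2 1.18 (edgeR adjusted p = 1.37e-10). Gamma-delta markers summed to 924 to 1084 CPM in negative and 672 to 841 CPM in positive cells, and ILC2 markers to 679 to 972 CPM in negative and 283 to 319 CPM in positive cells. Their part in these results was not tested.

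**Figure D5:**
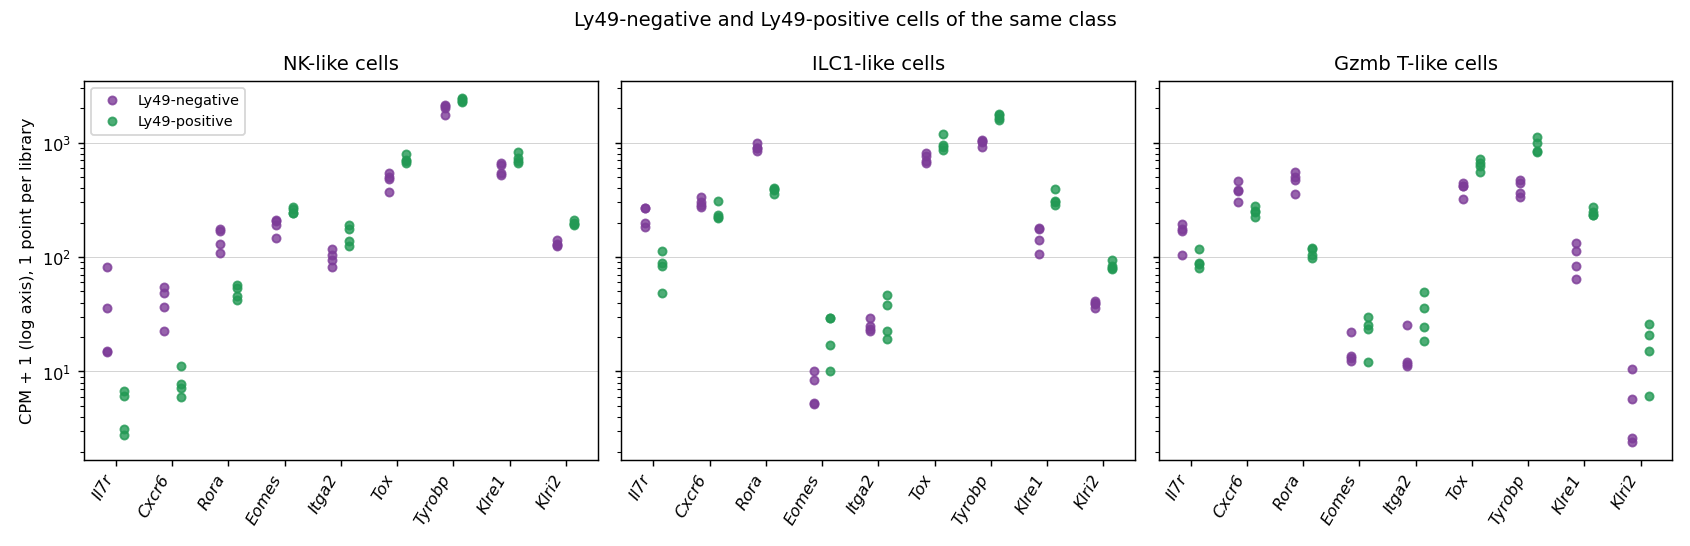
Levels of 9 genes (CPM + 1, log axis) in Ly49-negative (purple, left) and Ly49-positive (green, right) cells of 3 classes, 1 point per library. Rora lies higher and Tyrobp, Klre1 and Klri2 lie lower in negative than in positive cells in all 3 classes.

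Partner genes of the family were compared between the genotypes in NK and ILC1-like cells. On the 9 lists (other Klra genes, lectin-like receptors, other NK receptors, adaptors, class I genes, transcription factors, maturation, tissue-resident and ILC1 genes, effectors) no gene passed the threshold of edgeR in either direction, 17 genes had an unadjusted p under 0.05, and DESeq2 called 4 (Cd226, Cxcr6, Il7r and Rora). Within NK-like cells and within ILC1-like cells edgeR called 1 list gene, Il7r, which stands on both the maturation and the tissue-resident list. In NK-like cells Il7r had 7.25 and 11.8 CPM in Csf2-/-, against 2.71 and 2.47 CPM in Csf2+/-, a change of 1.83 (SE 0.24, adjusted p = 0.0300) by edgeR, and the call was lost without the Csf2+/- female (0.146) or Csf2+/- male library (0.221). In ILC1-like cells it had 221 and 230.2 CPM in Csf2-/-, against 178 and 154 CPM in Csf2+/-, a change of 0.44 (SE 0.09, adjusted p = 0.0377) by edgeR. That call was lost with DESeq2 (0.394) and without the Csf2+/- male (0.403), Csf2-/- female (0.204) or Csf2-/- male library (0.156). The tissue-resident and ILC1 list lay furthest up, with 11 of 12 tested genes above 0 and a median log2 change of 0.29, beside 0.00 over all genes. Il7r had 55.6 and 59.0 CPM in Csf2-/-, against 32.2 and 28.3 CPM in Csf2+/-, a change of 0.90 (SE 0.10, adjusted p = 0.0680) by edgeR. Cxcr6 had 70.0 and 76.3 CPM in Csf2-/-, against 49.0 and 46.2 CPM in Csf2+/-, a change of 0.60 (SE 0.08, adjusted p = 0.147) by edgeR. Both genes were higher in both Csf2-/- libraries, and so was the share of ILC1-like cells in the class. The adaptor list had 15 of 17 genes below 0, with a median of -0.06. The class I list had a median of 0.03 over 14 genes. Of the 8 other Klra and NK complex genes 5 were tested, with a median of -0.34, and Klra6 changed by -0.39 (edgeR adjusted p = 0.635).

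Over 18 classes in 4 libraries, the genes whose log2(CPM + 1) ran most like the summed 7 Ly49 genes were Styk1, Ncr1, Tnni1, Samd3 and Klrc2, with Pearson correlations of 0.873, 0.864, 0.859, 0.858 and 0.857 over 72 points. The points share libraries and their depth, so the values are descriptions.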

How the data were processed

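CD45+ salivary gland cells were preselected with magnetic beads, sorted and profiled with 3′ droplet libraries, per the labels' protocols. The deposited values are raw UMI counts in whole numbers. Cell Ranger 7.0.0 and GRCm39 are named in the submitters' processing notes. Kept were 37644 of 39395 barcodes, those with 500 or more UMIs, 300 or more genes and no more than 10% of UMIs from mitochondrial genes. Doublets were scored with Scrublet in scanpy 1.11.5. Automatic thresholds marked 3.03% and 9.82% of cells in Csf2-/-, against 0% and 0.0343% in Csf2+/-. The expected share (0.008 per 1000 barcodes) with the highest scores was therefore removed from every library. This was 7.80% and 7.66% in Csf2-/- and 7.65% and 7.01% in Csf2+/-. An unnamed cluster led by macrophage genes, with Ncr1 and Cd3e detected, kept 124 and 236 cells in Csf2-/-, against 29 and 73 in Csf2+/-. The part of doublets in the member results was not tested. Median UMIs per barcode were 8953 and 9003 in Csf2-/-, against 10586 and 10085.5 in Csf2+/-. Pairs of libraries shared 20 to 38 barcode sequences.

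Cells were clustered on 40 principal components of 3000 variable genes with 15 neighbours by Leiden (leidenalg 0.10.2, igraph 0.11.9, resolution 1.5, seed 1; numpy 2.4.6, pandas 2.3.3, Python 3.11.15), and named from marker lists. The names are rebuilt here. A cluster of 148 cells with NK markers stayed unnamed for lack of its own leading markers. Counts were summed per library and class and tested with edgeR 4.0.16 in R 4.3.3 (limma 3.58.1; TMM, default low-count filter, robust quasi-likelihood, genotype alone), wherever each library gave a class 50 or more cells, with adjusted p under 0.05 as the threshold. SEs were derived from the F statistic. DESeq2 1.42.0 was an alternative, with no filter, sex as a block, libraries left out, other cell filters and other thinning depths. Shares were compared by exact permutation over libraries (scipy 1.17.1), with a cell called Ly49-negative when none of the 7 Klra members had a UMI among 3000. Figures were drawn with matplotlib 3.10.9.

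Members and lists were chosen with earlier results of these data known. The text names all 9 members, genes past the threshold on the lists or up to 4 more per list by p, and the 5 genes most like the family in pattern. Genes named in the comparison of Ly49-negative with Ly49-positive cells were chosen after their values were seen. In tests on simulated data drawn from the real means, the genotype fit of NK and ILC1-like cells recovered 97 of 100 genes changed 2-fold and 100 of 100 changed 4-fold, with 13 false calls among 13102 genes. The fit of Ly49-negative against Ly49-positive NK-like cells recovered 79 and 98 of 100, with 4 false calls among 10200. The changed genes were drawn only from those above a minimum mean count. Changes below 2-fold, such as those of the members in NK and ILC1-like cells, were not simulated, so their recovery is not known. Coordinates are on GRCm38.p6, and shared windows were searched in GENCODE transcripts of that build. Protein sequences were not used here.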

Additional observations from a re-analysis of the deposited data

Results flagged for a closer look

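For 3 members the female and the male pair of libraries moved in opposite directions in NK and ILC1-like cells. The log2 ratio of Csf2-/- over Csf2+/- for Klra1 was -0.64 in female libraries and 0.0714 in male libraries. Klra9 gave -0.0091 in female and 0.113 in male libraries, and Klri2 gave -0.134 in female and 0.025 in male libraries. With 1 library per sex and genotype, the difference between the sexes was not tested.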

How the results depend on the processing

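With sex as a replicate block edgeR called 287 genes in NK and ILC1-like cells, 2 of them members (Klra4 and Klra7, both -0.29), against 1 gene and 0 members without it; DESeq2 called 70 and the fit without a filter 94. The numbers mark sex only: female minus male differences of the genotypes correlated with r = 0.342 over 13102 genes, in 2 pairs. In the other classes 5 member results passed, 12 without a filter, 12 with the block and 8 to 14 with a library left out, 4 with DESeq2, which gave members no adjusted p in monocyte-like cells; Klre1 in cDC2-like and monocyte-like cells and Klra1 in cDC2-like cells passed with the block and with every library left out. NK-like calls over all genes numbered 8, against 46 by DESeq2, 261 without a filter, 380 with the block and 2 to 122 with a library left out. The matching counts were 12, 18, 180, 81 and 0 to 69 in dividing NK-like cells, 18, 5, 76, 106 and 19 to 31 in ILC1-like cells, 17, 10, 105, 102 and 85 to 117 in Gzmb T-like cells, 166, 71, 416, 683 and 49 to 588 in monocyte-like cells, and 1812, 1112, 2142, 1672 and 847 to 1660 in cDC2-like cells. Signs turned for Klra3 with a library left out (-0.13 to 0.16, below 0 without the Csf2+/- male or Csf2-/- female library), Klra5 (-0.14 to 0.51, below 0 without the Csf2-/- female library; -0.19 with cells gated on markers), Klra9 (-0.0277 to 0.0873, below 0 without the Csf2-/- male library; -0.11 with the gate) and Klre1 (-0.18 to 0.0435, above 0 without the Csf2+/- male or Csf2-/- female library); the cause was not tested. Over 11 settings Klra4 ran from -0.43 to -0.19 and Klra7 from -0.37 to -0.25. The Ly49-negative difference in NK and ILC1-like cells ran from 5.34 points (5000 UMIs) to 8.30 and was 2.28 with the class mix held at its mean. Thinning to 5000 UMIs also left out cells with fewer, so it changed the cells as well as their depth. The number per cell ran from -0.38 to -0.19 and was -0.12 with that mix. Ly49-negative against Ly49-positive calls numbered 232 in NK-like cells (125 to 242 with a library left out, 187 by DESeq2), 476 in ILC1-like cells (363 to 433, and 206) and 713 in Gzmb T-like cells (424 to 694, and 359). The gate, the number of UMIs and this comparison were partly chosen after seeing the data.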

Other observations

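Relatives of the family outside the 9 members were read in myeloid cells. Klra2, which encodes Ly49B, a receptor of myeloid cells, had 229 and 282 CPM in Csf2-/-, against 230.0 and 270.2 CPM in Csf2+/- in monocyte-like cells, and edgeR gave no call (log2 0.05, SE 0.11, adjusted p = 0.871). Klra17, which encodes Ly49Q, a receptor of plasmacytoid dendritic cells, had 108 to 145 CPM in pDC-like cells. In cDC2-like cells Klra17 had 28.4 and 29.0 CPM in Csf2-/-, against 11.1 and 10.7 CPM in Csf2+/-, a log2 change of 1.38 (SE 0.13, adjusted p = 2.25e-05) by edgeR, in a class where 15.5% of genes were called. The mix of clusters in that class also differed between the genotypes. Klra6 reached 42.2 and 41.3 CPM in Csf2-/-, against 46.4 and 39.0 CPM in Csf2+/- in Gzmb T-like cells. These genes were chosen after their values were seen.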
